A study of Mus musculus with 8 samples.

Results

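Enzymes that make, recycle and balance nucleotides, together with the folate enzymes that feed carbon into them, were followed as 37 genes of the 55157 in the deposited FPKM table. They were matched by gene name, from a list drawn up with earlier results of these data known. The list holds 8 of de novo purine synthesis, 4 of the branch from IMP to AMP and GMP and 3 of purine salvage. It also holds 5 of de novo pyrimidine synthesis, 5 of pyrimidine nucleoside salvage and 3 nucleotide kinases. The last are 5 of deoxynucleotide and thymidylate supply and 4 of folate one-carbon metabolism. Each name matched 1 row. RNA came from follicles of type 7 to 8, a morphological stage, taken from ovaries of Kunming mice (an outbred stock) at postnatal day 21. All animals had received pregnant mare serum gonadotropin (PMSG, which acts like follicle-stimulating hormone) 24 hours earlier, given with normal saline in the 4 control samples and with melatonin in the 4 melatonin samples. No group without PMSG was analysed here, so responses to the gonadotropin itself cannot be read. Nothing in the labels tells whether a sample is 1 animal or a pool, so each p-value reflects variation among the 8 samples, some of which may be technical. By its title the series is about melatonin acting downstream of follicle-stimulating hormone, and the comparison asks which follicular transcripts differ when melatonin is added to the gonadotropin.

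Purine and pyrimidine rings are assembled from phosphoribosyl pyrophosphate, amino acids, carbon dioxide and, for purines, formyl groups carried by folate, or are recovered by salvage enzymes from free bases and nucleosides. Serine hydroxymethyltransferases and methylenetetrahydrofolate dehydrogenases supply those folate-bound carbons, in the cytosol and in mitochondria by separate enzymes. Ribonucleotide reductase and thymidylate synthase turn ribonucleotides into the precursors of DNA. Growing follicles contain dividing granulosa cells, which copy their DNA, around an oocyte that stores RNA without dividing.

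The libraries held between 17451111 and 23649205 fragments assigned to genes, as implied by the step size of low FPKM values, and the 37 genes rested on 7 (Nme2) to 5103 (Paics) such fragments per library. Markers of granulosa cells and of the oocyte were present, with summed levels of 8136 to 10647 FPKM in control and 6861 to 7909 FPKM in melatonin samples for 12 granulosa genes, and of 334 to 518 and 319 to 412 FPKM for 12 oocyte genes. Markers of other cells were low: 8 theca genes summed to 58.4 to 64.1 FPKM in control and 32.4 to 61.1 FPKM in melatonin samples, 7 stroma genes to 44.3 to 94.1 and 28.4 to 56.1, 6 endothelial genes to 8.30 to 12.7 and 6.59 to 9.32, 7 leukocyte genes to 21.8 to 105 and 19.6 to 33.4, and 6 surface epithelium genes to 28.2 to 47.8 and 24.5 to 30.4. Of these only Cd3e was at 0, in 4 samples. In every one of these 7 lists most tested genes had a negative log2 fold change with melatonin, where 52.5% of all tested genes were negative. These were 10 of 12 granulosa genes (median -0.29), 10 of 11 oocyte genes (median -0.12), 5 of 6 theca genes (median -0.38), 7 of 7 stroma genes (median -0.30), 4 of 4 endothelial genes (median -0.23), 5 of 5 leukocyte genes (median -0.37) and 4 of 4 surface epithelium genes (median -0.44). An unadjusted p under 0.05 with a lower level was found for 5 granulosa, 3 theca, 2 endothelial and 2 surface epithelium genes. None of the oocyte, stroma or leukocyte genes had it, and the share over all tested genes was 9.74%. With a higher level it was found for 1 granulosa gene, against 9.4% of all tested genes. All of these medians except that of the oocyte list lay further below 0 than the enzymes' median of -0.18. The part of cell makeup in the enzyme levels was not tested. Control replicate 3 stood apart on the first principal component (26.5% of the variance), at -29.9 against -11.4 to -0.49 in the other control samples and 5.81 to 17.4 in the melatonin samples. In whole follicles, fewer cells of a type and less RNA per cell cannot be told apart.

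Most of these enzymes had lower mean levels with melatonin, by modest amounts, and none passed the threshold. Fold changes are differences of log2(FPKM + 1), melatonin minus control, tested with limma over the 14738 genes whose mean reached 1 FPKM. That filter kept 36 of the 37 enzymes and left out Nme2. Of the 36, 32 had a negative fold change and 4 a positive one, with a median of -0.18, where 52.5% of all tested genes were negative with a median of -0.01. No gene of the whole table reached an adjusted p of 0.05 (limma with Benjamini-Hochberg adjustment, 0% called, 2821 genes at an unadjusted p under 0.05; limma-voom on recovered fragments, 0 genes, 2814 at an unadjusted p under 0.05). An unadjusted p under 0.05 with a lower level was found for 18 of the 36 enzymes, where the share over all tested genes was 9.74%. With a higher level it was found for 0 of 36, where the share over all tested genes was 9.4%. The 4 melatonin values lay entirely below the 4 control values in 13 of the 36 enzymes, and 5.94% of all tested genes did so. They lay entirely above in 0 of 36, against 5.79%. The count of 13 is 20 without melatonin replicate 3, where 10.2% of all tested genes did so, and 8 with limma-voom (4.29%). Among genes whose mean reached 5 FPKM, where 0% were called after adjustment, 14 of 32 enzymes had an unadjusted p under 0.05 and a lower level (13.7% of all such genes) and 0 a higher level (8.91%). In this subset 11 of 32 lay entirely lower (8.5% of all such genes) and 0 entirely higher (5.29%).

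**Figure D1:**
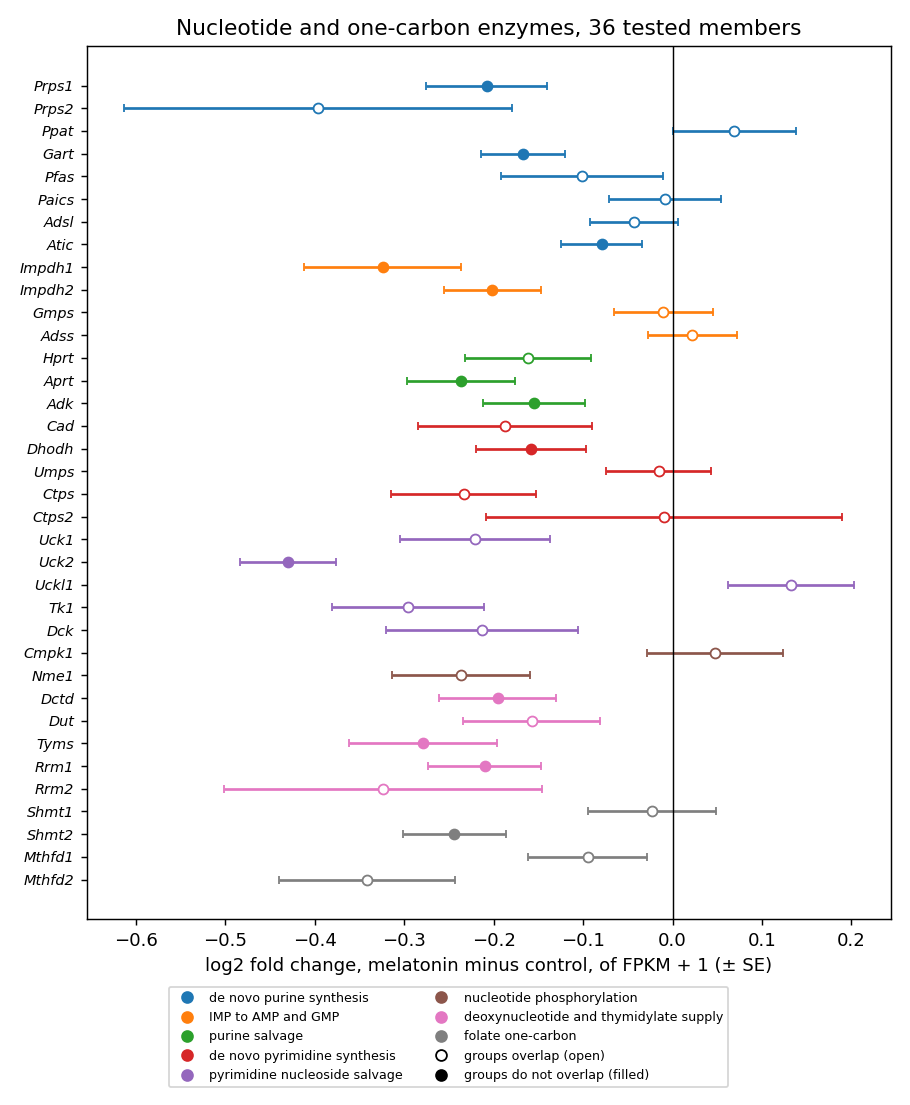
Log2 fold change (melatonin minus control, of FPKM + 1) with its standard error for the 36 tested enzymes, coloured by role. Filled points mark the 13 enzymes whose melatonin and control values do not overlap. Points lie between -0.43 (Uck2) and 0.13 (Uckl1), and 32 of them are left of 0.

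The levels spanned a wide range. FPKM is divided by gene length, which the low values imply to be that of all annotated exons together. This was 3342 bases for Nme1 and 8526 for Adk. A gene whose expressed transcripts are shorter than that gets too low a value, so the order of genes is approximate. In control samples the highest means were 71.3 ± 7.38 FPKM for Uck1 and 67.3 ± 5.06 FPKM for Paics, whose ranges overlapped, and then 47.9 ± 4.61 FPKM for Hprt (SD, n = 4 each). Prps2, Shmt2, Impdh2 and Dut followed at 29.1 to 31.1 FPKM and did not differ from each other beyond their spread. The lowest tested means were 4.94 ± 0.319 FPKM for Dhodh, 4.64 ± 0.454 for Nme1 and 4.56 ± 0.256 for Adk. In mean level over the 8 samples the tested enzymes ran from Nme1, above 35.3% of all tested genes, to Paics, above 95.8%.

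**Figure D2:**
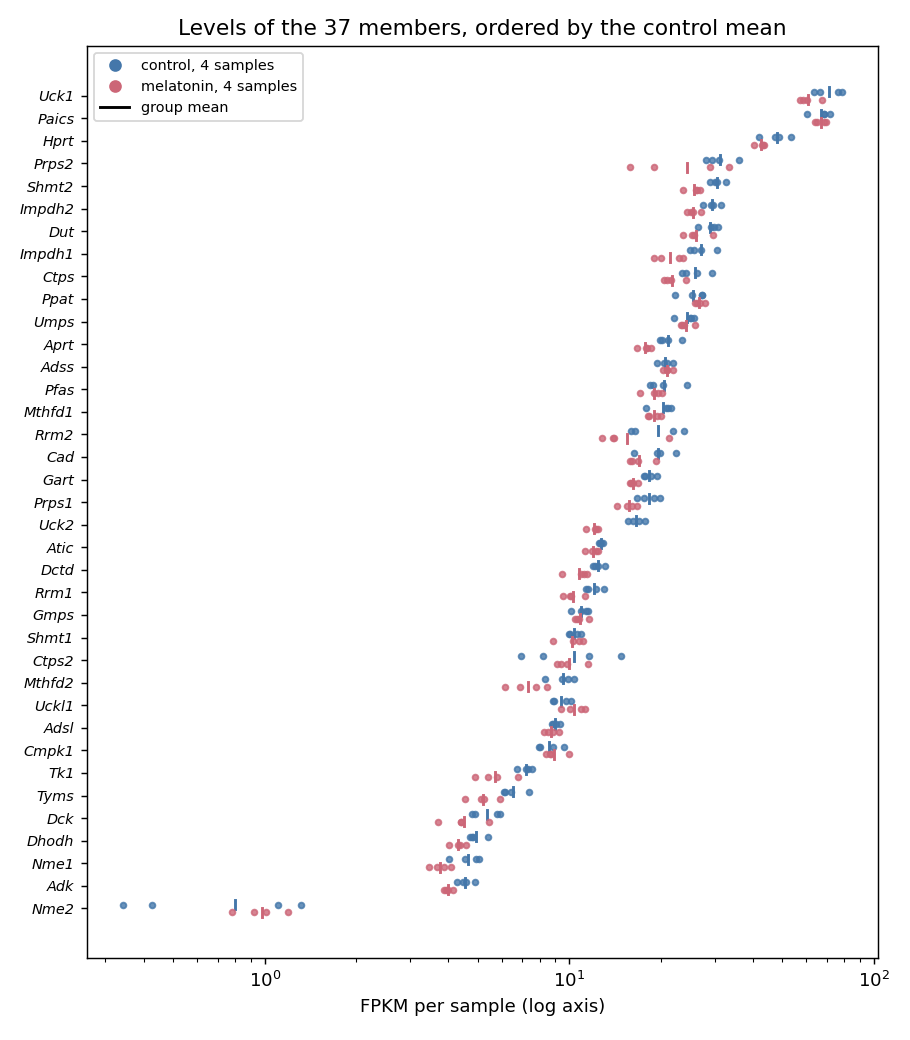
FPKM (log axis) in each of the 4 control and 4 melatonin samples for the 37 enzymes, ordered by the control mean, with a bar at each group mean. Uck1, Paics and Hprt lie at the top, and Nme2, below the filter, at the bottom with control values from 0.343 to 1.32 FPKM.

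The stretches before the start sites of 5 enzymes are shown because each holds letters of a common promoter motif and the enzyme had an unadjusted p under 0.05 with a lower level. For each motif found, the enzyme with the smallest p whose stretch overlaps no annotated exon was taken, after the values were seen. Each is the 250 bases upstream of the RefSeq start (GRCm38.p6, the mm10 assembly), 5′ to 3′ on the gene's strand, with motif letters in capitals. They are the NRF1 consensus in Shmt2, E-box (CACGTG) in Tyms, E2F (TTTGGCGC, TTTCCCGC or TTCCCGCC) and CCAAT in Rrm1, CCAAT in Gart, and an amino acid response element (TGATGNAAN) with CCAAT in Prps1. Both strands were searched.
Shmt2 (chr10:127522445-127522694, minus strand): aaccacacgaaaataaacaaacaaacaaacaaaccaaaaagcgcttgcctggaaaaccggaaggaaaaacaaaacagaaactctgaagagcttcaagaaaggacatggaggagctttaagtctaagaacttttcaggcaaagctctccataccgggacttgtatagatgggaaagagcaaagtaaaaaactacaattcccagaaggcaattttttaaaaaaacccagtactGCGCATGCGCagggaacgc
Tyms (chr5:30073626-30073875, minus strand): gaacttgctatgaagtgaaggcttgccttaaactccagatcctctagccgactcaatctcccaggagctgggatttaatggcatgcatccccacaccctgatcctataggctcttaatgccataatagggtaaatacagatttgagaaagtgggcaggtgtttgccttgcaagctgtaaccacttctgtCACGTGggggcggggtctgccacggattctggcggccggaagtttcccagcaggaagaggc
Rrm1 (chr7:102441445-102441694, plus strand): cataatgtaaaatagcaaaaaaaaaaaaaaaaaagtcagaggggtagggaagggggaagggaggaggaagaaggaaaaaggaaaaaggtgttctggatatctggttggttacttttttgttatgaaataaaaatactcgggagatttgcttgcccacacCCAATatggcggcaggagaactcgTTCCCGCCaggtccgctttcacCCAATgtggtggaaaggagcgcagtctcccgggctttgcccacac
Gart (chr16:91646973-91647222, minus strand): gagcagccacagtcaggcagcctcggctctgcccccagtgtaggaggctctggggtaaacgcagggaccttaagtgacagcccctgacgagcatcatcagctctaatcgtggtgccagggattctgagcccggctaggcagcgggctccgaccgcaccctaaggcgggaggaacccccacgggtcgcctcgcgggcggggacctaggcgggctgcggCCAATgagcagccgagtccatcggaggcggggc
Prps1 (chrX:140456353-140456602, plus strand): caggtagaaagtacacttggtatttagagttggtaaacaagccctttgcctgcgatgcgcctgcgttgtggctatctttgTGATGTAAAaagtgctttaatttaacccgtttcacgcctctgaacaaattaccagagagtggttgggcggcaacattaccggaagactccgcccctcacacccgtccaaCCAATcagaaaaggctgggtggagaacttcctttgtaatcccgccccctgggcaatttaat

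Promoters were matched by symbol for 35 of the 37 enzymes, with 46 start sites. The NRF1 letters stood in 4 of the 46 stretches (8.70%), against 0.782% of 32851 stretches of the same length over all genes. They belong to Uck1, with 2 starts, Ctps and Shmt2. The E2F letters stood in 3 (6.52%, all genes 2.69%), namely Ppat, Rrm1 and Mthfd1, and the E-box in 6 (13.0%, all genes 6.02%). CCAAT stood in 14 (30.4%, all genes 33.8%), the amino acid response letters in 1 (2.17%, all genes 3.44%) and the CRE letters TGACGTCA in 0 (all genes 1.55%). The NRF1, CACGTG and TGACGTCA letters read the same on both strands, and the alternative E2F letters can overlap each other. A match describes letters and not a bound site. The stretch before Uck2 holds none of these letters.

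De novo purine synthesis builds IMP from phosphoribosyl pyrophosphate. Of its 8 enzymes 7 had a negative fold change (median -0.09), and in Prps1, Gart and Atic the melatonin values lay entirely below the control values, as in 5.94% of all tested genes. Prps1, which makes phosphoribosyl pyrophosphate (chromosome X, 140456613 to 140476140), was at 19.0, 19.8, 16.6 and 17.6 FPKM in control replicates 1 to 4 and at 14.4, 16.6, 15.5 and 16.1 FPKM in melatonin replicates 1 to 4. The groups met near 16.6 FPKM without crossing, and the log2 fold change was -0.21 ± 0.067 SE (limma adjusted p = 0.173). Its paralog Prps2 had 36.1, 29.3, 31.0 and 28.2 FPKM in control and 19.0, 33.6, 15.8 and 29.0 FPKM in melatonin samples. Melatonin replicates 1 and 3 were low and replicates 2 and 4 within the control range, and the fold change was -0.40 ± 0.22 SE (adjusted p = 0.355). It was -0.22 without melatonin replicate 3 and -0.57 without melatonin replicate 2. Ppat, the amidotransferase of the committed step (chromosome 5, 76913249 to 76951578), had 25.4, 27.3, 22.2 and 27.3 FPKM in control and 28.01, 26.8, 26.3 and 26.0 FPKM in melatonin samples. These overlap, with a fold change of 0.07 ± 0.069 SE (adjusted p = 0.609). Gart, a multifunctional enzyme of the pathway (chromosome 16, 91621186 to 91646952), had 18.5, 17.7, 19.5 and 17.6 FPKM in control and 15.9, 16.1, 16.8 and 15.9 FPKM in melatonin samples. All melatonin values were below all control values, with a fold change of -0.17 ± 0.047 SE (adjusted p = 0.148). Paics, which adds carbon dioxide and aspartate to the growing ring, is the neighbour of Ppat: the annotated genes lie head to head and overlap by 272 bases. It was at 67.3 ± 5.06 FPKM in the controls, against 66.8 ± 2.68 FPKM with melatonin (SD, n = 4 each; fold change -0.01 ± 0.063 SE). Whether reads were counted by strand is not given in the sources used here, so reads in the overlap cannot be assigned with certainty. Of the remaining enzymes, Atic, which closes the ring, had control values of 12.5 to 13.0 FPKM and melatonin values of 11.3 to 12.5 FPKM that came close without overlap (fold change -0.08 ± 0.045 SE). Pfas, which makes the amidine intermediate, and Adsl, which splits off fumarate, overlapped between the groups, at -0.10 and -0.04.

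At IMP the pathway divides. Both IMP dehydrogenase genes, which commit IMP to GMP, had lower values with melatonin in every sample, while values of the next enzyme toward GMP and the first toward AMP overlapped. Impdh1 (chromosome 6, 29200434 to 29216364) was at 27.0, 25.7, 30.5 and 24.9 FPKM in the controls and at 19.0, 20.002, 22.9 and 23.7 FPKM in melatonin samples, without overlap (fold change -0.32 ± 0.087 SE, adjusted p = 0.147). Impdh2 (chromosome 9, 108560286 to 108565584) was at 29.3, 31.5, 27.5 and 29.7 FPKM in the controls and at 25.5, 27.1, 25.2 and 24.4 FPKM in melatonin samples, also without overlap (-0.20 ± 0.054 SE, adjusted p = 0.146). It overlaps Ndufaf3 on the other strand by 48 bases. Gmps, GMP synthase, was at 10.96 ± 0.61 FPKM in the controls, against 10.9 ± 0.527 FPKM with melatonin, and Adss, adenylosuccinate synthase, at 20.7 ± 1.07 and 21.01 ± 0.662 FPKM (SD, n = 4 each). For these 2 genes the fold changes were -0.01 ± 0.056 SE and 0.02 ± 0.050 SE.

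Purine salvage recovers free bases and adenosine, and all 3 enzymes had an unadjusted p under 0.05 with a lower level, as did 9.74% of all tested genes. Aprt, which recovers adenine (chromosome 8, 122574635 to 122576909), was at 21.04, 20.2, 23.4 and 19.9 FPKM in the controls and at 16.7, 18.1, 17.8 and 18.5 FPKM in melatonin samples. The groups did not overlap (fold change -0.24 ± 0.061 SE, adjusted p = 0.144). Aprt is overlapped over 2275 bases by Gm20388, a gene on the other strand with a mean of 0 FPKM. How reads there were counted is not given. Hprt, which recovers hypoxanthine and guanine (chromosome X, 52988137 to 53021659), was at 53.3, 47.3, 49.0 and 42.1 FPKM in the controls and at 43.6, 43.1, 43.3 and 40.5 FPKM in melatonin samples. Control replicate 4 lay inside the melatonin range, and the fold change was -0.16 ± 0.070 SE (adjusted p = 0.259). Hprt had an unadjusted p under 0.05 in 6 of 17 alternative settings. Adk, adenosine kinase (chromosome 14, 21052574 to 21448569), was at 4.27, 4.49, 4.58 and 4.89 FPKM in the controls and at 3.87, 4.15, 3.93 and 4.01 FPKM in melatonin samples without overlap (-0.15 ± 0.057 SE, adjusted p = 0.206). Its unadjusted p was under 0.05 in 12 of 16 alternative settings. Those in which it was not include the fits without control replicate 4 and without melatonin replicate 1 or 3.

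De novo pyrimidine synthesis makes UMP and then CTP. Its 5 fold changes were all negative, as were 52.5% of those of all tested genes, and 2 enzymes had an unadjusted p under 0.05 with a lower level, against 9.74% of all tested genes. Cad, the multifunctional enzyme that starts the pathway (chromosome 5, 31054780 to 31078479), was at 19.4, 19.9, 22.4 and 16.4 FPKM in the controls and at 16.1, 15.8, 19.2 and 16.8 FPKM in melatonin samples. Control replicate 4 was within the melatonin range, and the fold change was -0.19 ± 0.097 SE (adjusted p = 0.330). Dhodh, the mitochondrial dehydrogenase of the pathway (chromosome 8, 109591343 to 109608673), was at 4.73, 5.42, 4.81 and 4.82 FPKM in the controls and at 4.39, 4.32, 4.57 and 4.02 FPKM in melatonin samples, without overlap (-0.16 ± 0.062 SE, adjusted p = 0.226). Its unadjusted p was under 0.05 in 10 of 16 alternative settings. Those in which it was not include the fits without control replicate 2 and without melatonin replicate 1, 2 or 4. Umps, which completes UMP, was at 24.4 ± 1.55 FPKM in the controls, against 24.1 ± 1.21 FPKM with melatonin (SD, n = 4 each; -0.02 ± 0.059 SE). Ctps, a CTP synthase (chromosome 4, 120539868 to 120570276), was at 26.4, 24.1, 29.4 and 23.5 FPKM in the controls and at 20.5, 21.5, 24.2 and 20.98 FPKM in melatonin samples. Melatonin replicate 3 reached into the control range (-0.23 ± 0.081 SE, adjusted p = 0.188). The paralog Ctps2 varied widely within the control group, from 6.96 to 14.7 FPKM in control and from 9.10 to 11.6 FPKM in melatonin samples.

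In pyrimidine nucleoside salvage the uridine-cytidine kinase Uck2 had the smallest p of all 36 enzymes. Uck2 (chromosome 1, 167222883 to 167285320) was at 16.98, 15.6, 17.7 and 16.1 FPKM in the controls and at 11.4, 12.2, 12.4 and 12.2 FPKM in melatonin samples. The highest melatonin value was well below the lowest control value, and the melatonin mean relative to control was -27.4% (fold change -0.43 ± 0.054 SE, unadjusted p = 3.0e-05, adjusted p = 0.120). Over 17 alternative settings its fold change ran from -0.46 to -0.40 and its adjusted p from 0.0626 to 0.313. Uck1, the second kinase of this family (chromosome 2, 32255002 to 32260159), was at 78.6, 63.6, 76.5 and 66.5 FPKM in the controls and at 57.3, 60.5, 58.4 and 67.5 FPKM in melatonin samples. Melatonin replicate 4 lay within the control range (-0.22 ± 0.084 SE, adjusted p = 0.217), and its unadjusted p was under 0.05 in 9 of 17 alternative settings. Uckl1, a related gene (chromosome 2, 181569149 to 181584892), was at 9.39 ± 0.634 FPKM in the controls, against 10.4 ± 0.866 FPKM with melatonin (SD, n = 4 each; 0.13 ± 0.071 SE, adjusted p = 0.345). It overlaps Zfp512b on the same strand over 2790 bases, so its counts are uncertain. Tk1, the cytosolic thymidine kinase of dividing cells (chromosome 11, 117815526 to 117826092), was at 6.76, 7.57, 7.33 and 7.21 FPKM in the controls and at 5.78, 5.42, 6.78 and 4.92 FPKM in melatonin samples. The groups crossed only at melatonin replicate 3 and control replicate 1, which were almost equal (-0.30 ± 0.085 SE, adjusted p = 0.150). Tk1 is overlapped over 10567 bases by Gm20708, a gene on the other strand with a mean of 0 FPKM, and how reads there were counted is not given. Dck, deoxycytidine kinase, was at 5.35 ± 0.593 and 4.50 ± 0.724 FPKM with overlap (SD, n = 4 each; -0.21 ± 0.107 SE).

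**Figure D3:**
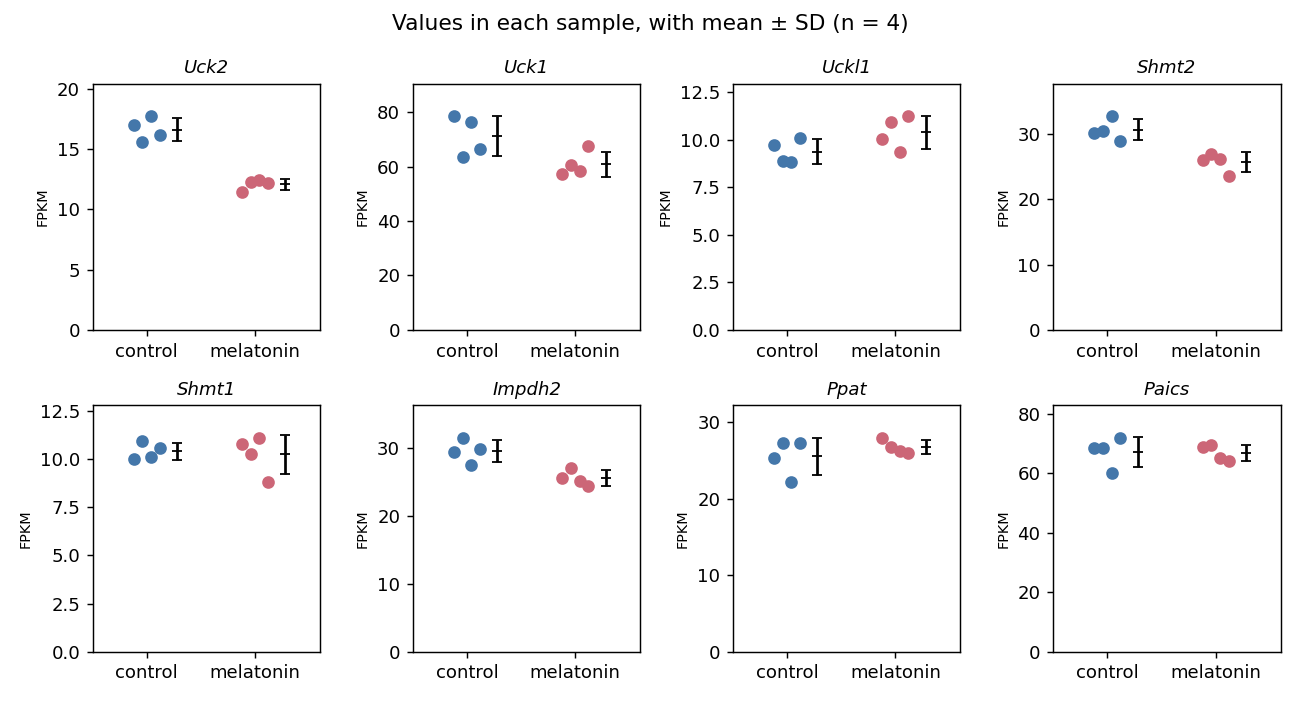
FPKM in each sample (axes from 0), with mean ± SD (n = 4), for Uck2, Uck1, Uckl1, Shmt2, Shmt1, Impdh2, Ppat and Paics. The groups are apart for Uck2, Shmt2 and Impdh2 and overlap for the other 5 genes.

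Nucleoside mono- and diphosphates are phosphorylated by kinases, of which 2 could be tested. Cmpk1, which phosphorylates UMP and CMP, was at 8.61 ± 0.781 FPKM in the controls, against 8.93 ± 0.739 FPKM with melatonin (SD, n = 4 each; fold change 0.05 ± 0.076 SE). Nme1, a nucleoside diphosphate kinase, was at 5.04, 4.54, 4.93 and 4.03 FPKM in the controls and at 3.47, 3.88, 4.10 and 3.67 FPKM in melatonin samples, crossing only at control replicate 4 and melatonin replicate 3 (-0.24 ± 0.077 SE, adjusted p = 0.173). Its neighbour and close paralog Nme2 was at 1.11, 0.343, 1.32 and 0.426 FPKM in the controls and at 1.01, 1.19, 0.782 and 0.922 FPKM in melatonin samples, from 7 to 34 recovered fragments. Both genes lie under an annotated read-through gene, Gm20390, and resemble each other in sequence. How such reads were counted is not given, so both levels are uncertain.

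Enzymes that supply deoxynucleotides and thymidylate all had negative fold changes, as did 52.5% of all tested genes, and in 3 of the 5 the melatonin values lay entirely below the control values, against 5.94%. Tyms, thymidylate synthase (chromosome 5, 30058202 to 30073617), was at 6.16, 7.37, 6.46 and 6.12 FPKM in the controls and at 5.24, 5.14, 5.91 and 4.55 FPKM in melatonin samples (fold change -0.28 ± 0.083 SE, adjusted p = 0.155). Rrm1, the large subunit of ribonucleotide reductase (chromosome 7, 102441695 to 102469771), was at 12.3, 12.96, 11.4 and 11.5 FPKM in the controls and at 10.1, 10.2, 11.3 and 9.56 FPKM in melatonin samples (-0.21 ± 0.063 SE, adjusted p = 0.158). In both genes the highest melatonin value was that of replicate 3 and the lowest that of replicate 4. Dctd, dCMP deaminase (chromosome 8, 48099092 to 48153233), was at 12.5, 13.1, 11.99 and 12.2 FPKM in the controls and at 11.2, 9.45, 11.5 and 10.95 FPKM in melatonin samples (-0.20 ± 0.065 SE, adjusted p = 0.178). Rrm2, the small subunit that is limiting in S phase (chromosome 12, 24708241 to 24714146), was at 16.5, 21.9, 23.8 and 15.97 FPKM in the controls and at 12.8, 14.03, 21.2 and 13.9 FPKM in melatonin samples. Melatonin replicate 3 stood at the level of control replicates 2 and 3, the groups overlapped, and the fold change was -0.32 ± 0.178 SE (adjusted p = 0.355). Without melatonin replicate 3 it was -0.48. Dut, which removes dUTP, was at 29.1 ± 1.90 and 26.01 ± 2.56 FPKM, with melatonin replicate 3 at 29.6 FPKM (SD, n = 4 each; -0.16 ± 0.077 SE).

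The order of the samples in these 5 enzymes was close to that in 20 other genes of S phase and proliferation, which do not belong to the 37. The mean deviation of Dctd, Dut, Tyms, Rrm1 and Rrm2 from each gene's mean over the 8 samples was 0.07, 0.24, 0.16 and 0.01 in control replicates 1 to 4 and -0.16, -0.18, 0.09 and -0.21 in melatonin replicates 1 to 4, on the log2 scale. That of the S-phase and proliferation genes was 0.07, 0.20, 0.20 and -0.02 in control and -0.12, -0.20, 0.11 and -0.24 in melatonin samples. In both lists melatonin replicate 3 was inside the control range and the other 3 melatonin samples were below all control samples. This pattern was not particular to these lists. The 4 folate enzymes (melatonin replicate 3 at 0.015, lowest control -0.015) and the granulosa markers (0.060 and -0.0088) had it too. Of the 20 genes 19 had a negative fold change (median -0.23), and 11 had an unadjusted p under 0.05 with a lower level (9.74% of all tested genes), none of them with an adjusted p under 0.05 by limma. Pcna, the sliding clamp of DNA polymerase, was at 66.6 ± 8.61 and 50.2 ± 8.79 FPKM, and the proliferation marker Mki67 at 41.1 ± 6.64 and 42.6 ± 2.31 FPKM (SD, n = 4 each). Of the 20, 2 did not overlap between the groups (10%, against 5.94% of all tested genes): Rfc4, a clamp loader subunit, and Gmnn, a licensing inhibitor, at fold changes of -0.22 and -0.38. The part of S-phase cells in the levels of the enzymes was not tested.

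**Figure D4:**
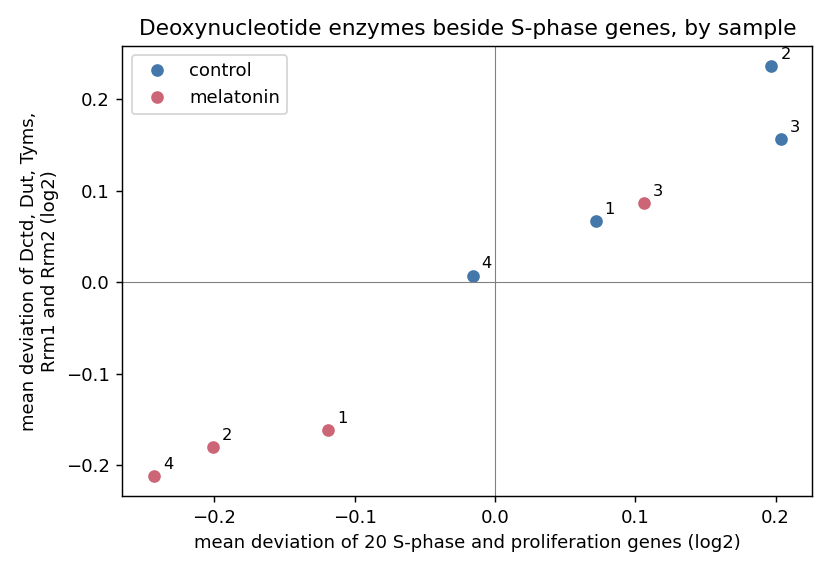
Mean deviation of 5 deoxynucleotide enzymes (vertical axis, log2) against that of 20 S-phase and proliferation genes (horizontal axis, log2) in each sample, numbered by replicate within its group. Melatonin replicate 3 lies among the control samples, and melatonin replicates 1, 2 and 4 lie below -0.1 on both axes.

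In folate metabolism all 4 fold changes were negative, as were 52.5% of those of all tested genes. Both mitochondrial enzymes among these 4 had an unadjusted p under 0.05 with a lower level, as did 9.74% of all tested genes. Shmt2, which takes a carbon from serine in mitochondria (chromosome 10, 127517123 to 127522444), was at 30.2, 30.5, 32.8 and 28.9 FPKM in the controls and at 26.05, 26.98, 26.2 and 23.6 FPKM in melatonin samples. The groups did not overlap (fold change -0.24 ± 0.057 SE, adjusted p = 0.127). Mthfd2, a mitochondrial dehydrogenase and cyclohydrolase (chromosome 6, 83305691 to 83325908), was at 8.32, 9.43, 10.3 and 9.91 FPKM in the controls and at 6.15, 7.77, 8.44 and 6.90 FPKM in melatonin samples. Melatonin replicate 3 and control replicate 1 crossed slightly (-0.34 ± 0.098 SE, adjusted p = 0.149). The cytosolic Shmt1 was at 10.4 ± 0.439 FPKM in the controls, against 10.2 ± 1.01 FPKM with melatonin (-0.02 ± 0.072 SE), and the cytosolic trifunctional Mthfd1 at 20.3 ± 1.67 and 18.9 ± 0.909 FPKM (-0.09 ± 0.067 SE; SD, n = 4 each). Beyond these 4, the mitochondrial Mthfd2l was higher with melatonin (0.28 ± 0.077 SE). Mthfd1l, also mitochondrial, overlapped between the groups (-0.22 ± 0.15 SE).

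Whether related enzymes differed from each other in response was tested on the log2 ratio of their FPKM + 1 values in each sample, for 7 pairs. The two-sided exact permutation test over 70 assignments of the 8 samples has a smallest p of 0.0286. The Shmt1 to Shmt2 ratio was -1.51, -1.40, -1.61 and -1.37 in control and -1.20, -1.31, -1.17 and -1.32 in melatonin samples. It was higher in all melatonin samples, by 0.22 ± 0.066 SE (exact permutation p = 0.0286, 0.10 adjusted over 7 pairs). The Uck2 to Uckl1 ratio was 0.74, 0.75, 0.93 and 0.63 in control and 0.17, 0.15, 0.38 and 0.10 in melatonin samples. It was lower in all melatonin samples, by -0.56 ± 0.088 SE (exact permutation p = 0.0286, 0.10 adjusted). For Uck2 to Uck1 the difference was -0.21 ± 0.065 SE with overlapping groups (exact permutation p = 0.0571, 0.10 adjusted), and for Nme1 to Nme2 it was -0.41 ± 0.18 SE (exact permutation p = 0.0571, 0.10 adjusted). Nme2 was below the filter, with 7 to 34 fragments. Counts of Nme1, Nme2 and Uckl1 are uncertain because of overlapping genes, and so are the ratios that use them. The differences were 0.19 ± 0.23 SE for Prps1 to Prps2, -0.12 ± 0.14 SE for Impdh1 to Impdh2 and -0.22 ± 0.29 SE for Ctps to Ctps2 (exact permutation p = 0.457, 0.371 and 0.429). No pair passed an adjusted p of 0.05, but a single pair with fully separated groups could not go below 0.2 after adjustment over 7 pairs, so this says nothing on whether the ratios differ.

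Of 66 further genes of purine, pyrimidine, folate, methionine and serine metabolism, 54 were tested, 34 had a negative fold change (median -0.06), 7 had an unadjusted p under 0.05 with a lower level (13.0%, against 9.74% of all tested genes) and 3 with a higher one (9.4% of all tested genes). These shares are near the background. The difference from the 36 enzymes was not tested. Among purine genes, Nt5c, a nucleotidase, was at 25.0 ± 2.88 FPKM in the controls, against 19.6 ± 2.48 FPKM with melatonin, without overlap (SD, n = 4 each). Among pyrimidine genes, Dtymk, thymidylate kinase, was at 53.7, 53.6, 51.1 and 52.8 FPKM in the controls and at 47.4, 48.4, 48.4 and 43.9 FPKM in melatonin samples. These did not overlap (fold change -0.16 ± 0.046 SE, adjusted p = 0.148). Rrm2b, the reductase subunit used outside S phase, had higher melatonin values without overlap, at 2.10 ± 0.0991 and 2.48 ± 0.180 FPKM (0.16 ± 0.071 SE, adjusted p = 0.256).

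In the folate, methionine and serine list the median fold change of 21 tested genes was -0.0027. Of these, 3 had a lower and 2 a higher level at an unadjusted p under 0.05, near the shares over all tested genes (9.74% and 9.4%). Ahcy, which hydrolyses S-adenosylhomocysteine, was at 33.3, 38.6, 38.8 and 32.97 FPKM in the controls and at 27.1, 28.1, 16.3 and 26.3 FPKM in melatonin samples, with melatonin replicate 3 farthest from the others (-0.56 ± 0.16 SE, adjusted p = 0.150). Mthfd2l, the mitochondrial paralog of Mthfd2, had higher values with melatonin, at 3.86, 3.14, 3.52 and 3.27 FPKM in the controls and at 4.46, 4.72, 3.87 and 4.50 FPKM in melatonin samples (0.28 ± 0.077 SE, adjusted p = 0.148). Control replicate 1 and melatonin replicate 3 nearly met. Phgdh, the first enzyme of serine synthesis, was at 15.3 ± 2.74 and 12.3 ± 2.99 FPKM with overlap (SD, n = 4 each; -0.31 ± 0.178 SE, adjusted p = 0.375).

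Of 11 genes for regulators of nucleotide enzymes, 7 had a negative fold change (median -0.06). The groups overlapped in all 11. E2f1, an activator of S-phase genes, was at 13.2 ± 1.66 FPKM in the controls, against 10.1 ± 1.45 FPKM with melatonin (-0.35 ± 0.110 SE, adjusted p = 0.168), with melatonin replicate 3 highest of its group at 12.2 FPKM. Rps6kb1, a kinase of the mTOR pathway that acts on Cad, was at 7.40 ± 0.464 and 8.31 ± 0.490 FPKM (0.15 ± 0.061 SE, adjusted p = 0.238). Myc, an activator of many of these enzymes, was at 40.1 ± 14.1 and 44.2 ± 4.58 FPKM, with 20.9 FPKM in control replicate 3, and Atf4, which drives serine and mitochondrial folate genes under stress, at 57.3 ± 4.03 and 52.9 ± 2.83 FPKM (SD, n = 4 each).

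Averaged over the 36 enzymes, the deviation from each gene's mean was 0.07, 0.11, 0.09 and 0.05 in control and -0.12, -0.06, -0.03 and -0.10 in melatonin samples on the log2 scale, so the groups did not overlap. The same average also did not overlap for the 21 further folate, methionine and serine genes, whose median fold change was -0.0027. It overlapped for the further purine and pyrimidine lists, the regulators and the S-phase genes. Control replicate 3, which stood apart over all genes, had the highest value of its group in several enzymes, such as Uck2, Impdh1 and Rrm2, and the lowest in others, such as Prps1, Ppat and Paics. Without it the median fold change of the 36 was -0.16. In that setting 16 had an unadjusted p under 0.05 with a lower level, against 7.57% of all tested genes. The median was -0.15 after removal of trends with GC content and exon length. There 19 were at an unadjusted p under 0.05 and lower, against 9.06% of all genes fitted.

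**Figure D5:**
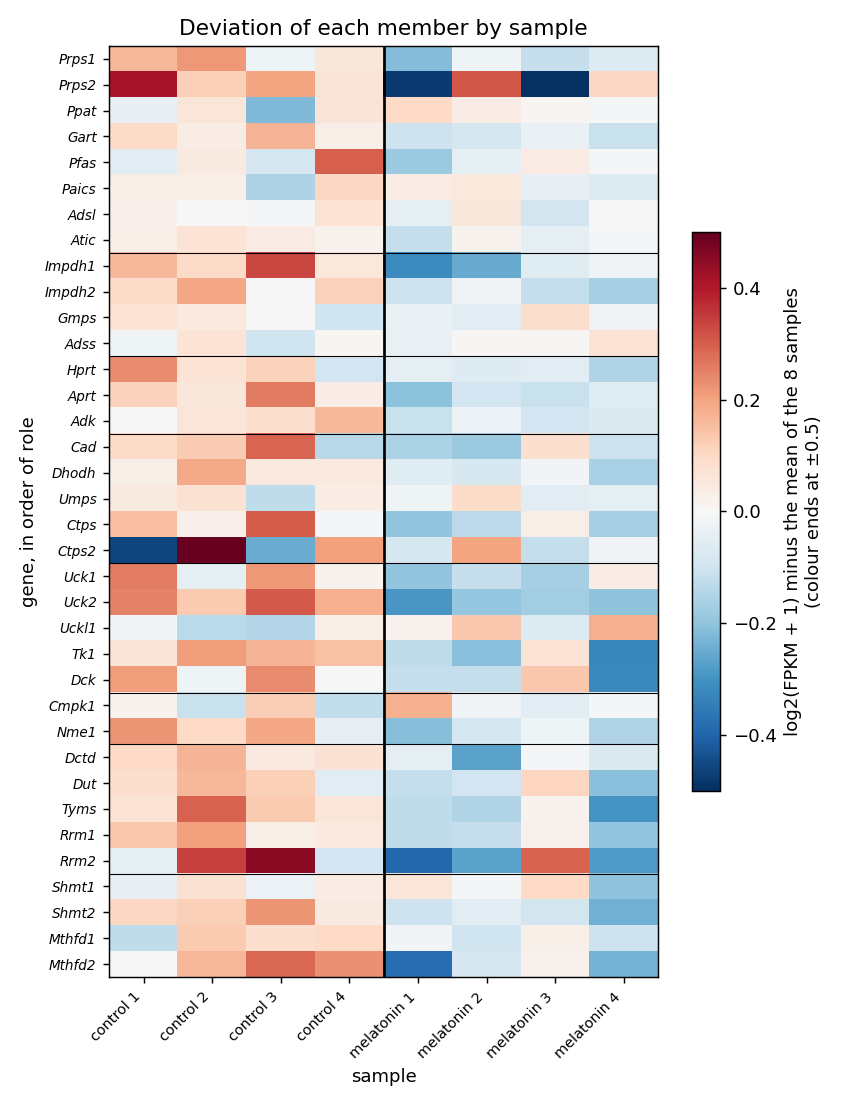
Deviation of log2(FPKM + 1) from the mean of the 8 samples for the 36 tested enzymes (rows, in order of role, with lines between roles) in each sample (columns). Control columns are mostly red (higher) and melatonin columns mostly blue (lower). Prps2 and Ctps2 vary within groups, and melatonin replicate 3 is red in Rrm2, Dut and Dck.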

How the data were processed

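Messenger RNA of 8 follicle samples, 4 control and 4 melatonin, was measured by RNA-seq. Per the labels' protocols, libraries were made from Trizol-extracted total RNA with a NEBNext Ultra kit. The submitters' processing notes name HISAT2 2.0.5 and the mm10 build. Which tool counted reads, on which annotation and with what strand setting, is not given in the sources used here. Values deposited by the authors are FPKM per gene, per the file headers. Since FPKM is scaled within each library, total RNA per follicle cannot be read from it.

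Exon lengths and coordinates came from GENCODE M21 (mm10), which matched 54495 of 55157 identifiers. Between 98.7% and 98.9% of low values, up to 30 fragments, were whole numbers within 0.05 fragments.

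Genes whose mean reached 1 FPKM were tested with limma 3.58.1 (R 4.3.3, intensity trend) on log2(FPKM + 1), with all 8 samples and no covariate. This scale understates changes of low genes. The limma fit was tested on simulated data. Benjamini-Hochberg adjustment covered 14738 genes, with a threshold of 0.05. Members and gene lists were chosen with earlier results of these data known. Values per sample were given for members with an unadjusted p under 0.05 and for members of a sole or rate-limiting step (Ppat, Cad, Tyms, Rrm2, Impdh2, Hprt and Mthfd2). Of each further list, the 2 genes with the smallest p were named, plus Phgdh, Dtymk, Myc, Atf4, Mki67 and Pcna. A few genes that this rule names are not reported here. Alternatives were other pseudocounts (0.1), filters (0 and 5 FPKM), scalings, array weights, GC and length correction (natural splines, 5 degrees of freedom), a replicate block and each sample left out. limma-voom on recovered fragments was added after the data were seen. Tables and plots were made in Python 3.11.15 with matplotlib 3.10.9.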

Additional observations from a re-analysis of the deposited data

Results flagged for a closer look

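In 3 of 74 groups of 4 values (37 genes, 2 groups each), 1 sample lay far from the other 3 by Dixon's ratio at the 95% level, where chance gives about 1 in 20. Rrm2 in melatonin replicate 3 was at 21.2 FPKM, against 12.8 to 14.03 FPKM in the other 3 melatonin samples. Dhodh in control replicate 2 was at 5.42 FPKM, against 4.73 to 4.82 FPKM in the other control samples. Hprt in melatonin replicate 4 was at 40.5 FPKM, against 43.1 to 43.6 FPKM in the other melatonin samples.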

How the results depend on the processing

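The median fold change of the 36 enzymes was negative in all 17 alternative settings, and 27 enzymes were negative in each setting in which they were fitted. No enzyme had an adjusted p under 0.05 in any of them, the lowest being 0.0626 (Uck2, limma-voom on recovered fragments). Of the 18 enzymes with an unadjusted p under 0.05, 13 kept it in every alternative. Leaving out 1 sample at a time gave 13 to 19 such enzymes with lower levels and 0 to 1 with higher levels. Of all tested genes, 6.52% to 11.1% were lower at that p in these settings. Entirely lower were 13 to 20 enzymes and 6.9% to 10.2% of all tested genes, and 0 to 1 genes of the whole table passed the threshold. Without a filter 1 gene of the table passed. With limma-voom 8 enzymes lay entirely lower, as did 4.29% of all genes fitted. The enzyme with a higher level was Uckl1, which also made the count 1 after the GC and length correction and with limma-voom. The sign turned in 28 of 608 values, all in 7 enzymes near 0. After quantile normalization Paics was at 0.088 and Umps at 0.027. After the GC and length correction Paics was at 0.030, Adss at -0.030, Umps at 0.020, Cmpk1 at -0.025 and Shmt1 at 0.0094. With limma-voom Paics was at 0.012, Gmps at 0.0089, Umps at 0.0058 and Ctps2 at 0.031. With 1 sample left out the ranges were -0.060 to 0.025 for Paics, -0.045 to 0.011 for Gmps, -0.0080 to 0.049 for Adss, -0.059 to 0.0076 for Umps, -0.16 to 0.16 for Ctps2, -0.0037 to 0.096 for Cmpk1 and -0.060 to 0.040 for Shmt1. The cause was not tested. No isoenzyme ratio turned its sign in the alternatives that gave a value. The Nme1 to Nme2 ratio had no value after the GC and length correction, since Nme2 was below the filter. Pairing of the samples by replicate number was not evident, but these few correlations cannot exclude it. Deviations of same-numbered samples correlated at 0.00074, -0.10, 0.15 and 0.038 for numbers 1 to 4. Those of differently numbered samples correlated at -0.091 to 0.096. With the replicate block 19 enzymes had an unadjusted p under 0.05 and lower levels, as did 9.55% of all tested genes, and 0 genes passed. In the sign-flip test of the ratios, which takes same-numbered samples as pairs, the smallest p is 0.125. Uck2 to Uckl1, Uck2 to Uck1 and Shmt1 to Shmt2 reached that value with the replicate block. For Uck2 to Uckl1 and Shmt1 to Shmt2 the groups did not overlap, so any pairing gives it. Depth was lowest for Nme2, which rested on 7 to 34 fragments.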
